A study of Homo sapiens with 9 samples.

Results

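Annexins are cytosolic proteins that bind negatively charged phospholipids in a calcium-dependent way through a conserved core of repeats, while their variable tails bind partners such as S100 proteins. They scaffold membranes, seal torn plasma membrane, organise actin at membranes and take part in vesicle traffic. In glioma, annexin A2 and annexin A1 are known as proteins of infiltrating and mesenchymal-type tumour cells. The annexin genes were chosen by symbol, not by any measured value: ANXA1, ANXA2, ANXA3, ANXA4, ANXA5, ANXA6, ANXA7, ANXA8, ANXA10 and ANXA11. Of these 10 symbols, 8 were among the 18364 genes of the deposited table, and ANXA3 and ANXA10 were not analysed here. All 8 passed the filter of a mean of at least 1 CPM (counts of a gene scaled to a common library size) over the tumours. ANXA8 passed it through the TAZ-4SA tumours, since its EV tumours lay under 0.2 CPM.

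LN229, a long-established glioblastoma line of human origin, had been grown intracranially in nude mice, and RNA was taken from 9 tumours at the terminal stage. In 6 tumours the line expressed TAZ-4SA, where 4SA denotes serine-to-alanine changes at inhibitory phosphorylation sites of TAZ, a transcriptional co-activator. In the other 3 it held the empty vector (EV). Nude mice lack mature T cells, and the labels say neither whether a line was a clone nor which promoter drove the construct. The comparison asks which genes differ when TAZ is active in glioblastoma tumours.

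The TAZ-4SA libraries held 3144861 to 31468135 reads and left 2990 to 7365 genes without a read, against 17314672 to 21576264 reads and 505 to 622 genes in EV. Genes without a read did not simply follow depth: TAZ-4SA tumour 4, with 31468135 reads, left 6573, and tumour 5, with 3299325, left 2990. The part of this in falls of single genes to 0 reads was not tested. WWTR1, the gene of TAZ, had a mean of 331 ± 74.6 CPM (SD, n = 6) with TAZ-4SA against 119.6 ± 3.17 CPM (SD, n = 3) with EV (exact two-sided permutation test, p = 0.02381, the smallest the 84 splits can give). All 10 glioma and glial marker genes had reads in both groups, with sums from 2407 to 3827 CPM for TAZ-4SA against 3740 to 4061 CPM for EV. Within that list of 10, EGFR and CD44 were called higher, against 9.02% of all genes tested, and NES, S100B and FABP7 lower, against 13.3%. SOX2, OLIG2 and PDGFRA were not called but also lay lower in every TAZ-4SA tumour than in every EV tumour, as 21.3% of all genes did. The median log2 difference was -3.14, beside -0.85 over all genes tested. The sum, to which VIM gave most in TAZ-4SA, thus hides members that moved in opposite directions. Transcript length moved with the groups. Among genes averaging 10 CPM or more, each centred on its mean over the tumours, the median of those under 1500 bases minus that of those of 4000 bases or more was 0.643 to 0.802 on the log2 scale in EV and -0.484 to 0.0124 in TAZ-4SA. In bulk tumour RNA, fewer cells of a type and less RNA per cell cannot be told apart.

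Among the annexins, ANXA2 and ANXA8 rose in the TAZ-4SA tumours, and the other 6 genes did not pass the test. In the limma fit at an adjusted p under 0.05, 2 of 8 annexins were called higher, against 9.02% of all 15578 genes tested. Called lower were 0 of 8, against 13.3% of all genes, and called either way were 2 of 8, against 22.4%. At an unadjusted p under 0.05 the limma counts were 3 higher and 0 lower, and all genes were not counted at that threshold. With limma-voom on the recovered reads the counts were 2 higher and 0 lower, against 1359 and 3573 of all 15578 genes. The median log2 difference of the 8 annexins was 0.36, beside -0.85 over all genes tested. That background holds many low genes. Among the 10447 genes averaging 10 CPM or more, which include all 8 annexins, the median was -0.41. Of those, 1392 were called higher and 967 lower, so the balance of calls there was the other way. Quantile normalization moved the median of all genes to -0.15 and their calls from 1405 higher and 2079 lower to 1920 and 1624, and reversed the direction of none of the 8 annexins. ANXA2 and ANXA8 were also the only ones of these 8 annexins whose groups did not overlap. Such separation held in the higher direction for 10.8%, in the lower for 21.3% and in either for 32% of all genes.

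**Figure D1:**
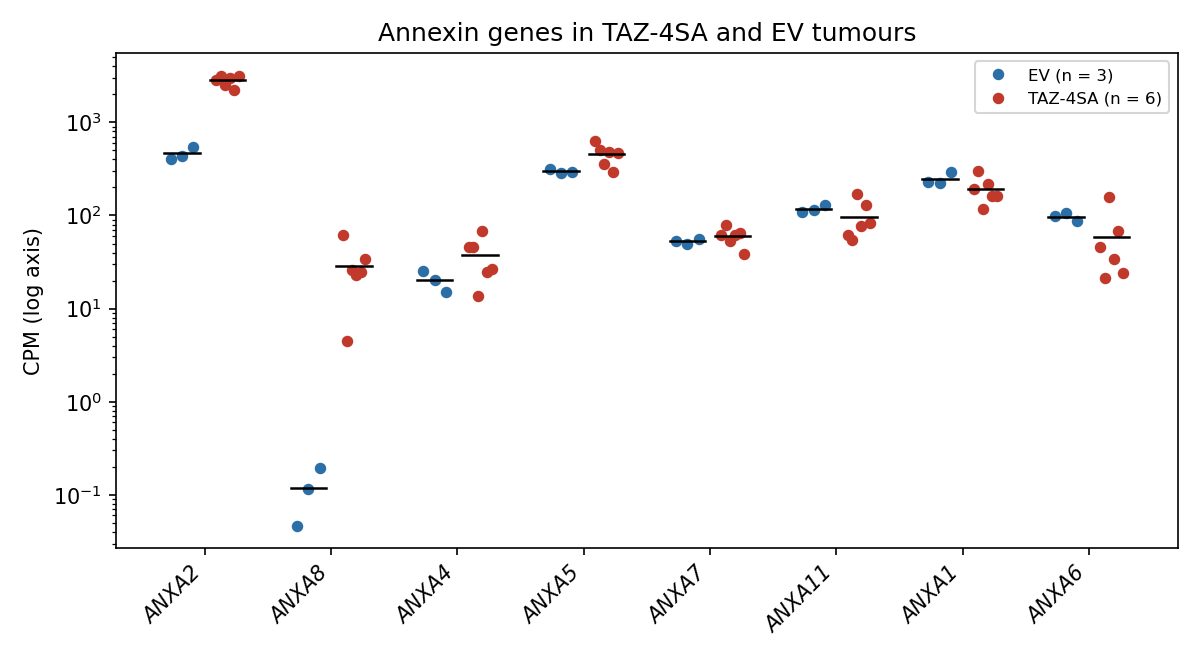
Level of each of the 8 annexin genes in CPM on a log axis, with 1 point per tumour and a black line at the group mean. The 6 TAZ-4SA points lie above the 3 EV points for ANXA2 and ANXA8, and the groups overlap for the other 6 genes.

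ANXA2 encodes annexin A2, which pairs with S100A10 at the plasma membrane, binds actin and recruits plasminogen to the cell surface. The gene (Entrez 302) lies on chromosome 15 from 60347151 to 60397986 on the minus strand (RefSeq, GRCh38.p14). The bases just upstream of its start are shown because ANXA2 rose and because theirs was the only annexin window with a match to a motif searched. The window is chr15:60397987-60398236, minus strand, with the matched AP-1 motif in capitals.

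ANXA2 upstream: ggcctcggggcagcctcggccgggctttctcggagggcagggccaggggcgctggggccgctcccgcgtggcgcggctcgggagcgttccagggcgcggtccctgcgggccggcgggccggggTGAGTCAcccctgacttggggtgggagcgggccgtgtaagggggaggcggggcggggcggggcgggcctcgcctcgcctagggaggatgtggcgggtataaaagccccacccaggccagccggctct

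RefSeq gave 11 promoter windows of 300 bases for 7 of the 8 annexins, with several windows where a gene has several starts, and none for ANXA8. Both strands were searched for the TEAD motif CATTCC and the AP-1 motif TGANTCA, which do not overlap here. No annexin window held CATTCC, which was present in 14.03% of all 35116 promoter windows. TGANTCA was found once, 127 bases before the ANXA2 start, and 7.71% of all windows held it. A match is a description of letters, and a missing match says only that those letters are not in that window. The windows also differed in base composition: the ANXA2 window had 76.0% G and C with 32 CpG dinucleotides, whereas the ANXA1 window had 37.7% G and C and 0 CpG.

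ANXA2 was at 408, 436 and 547 CPM in EV tumours 1 to 3. In TAZ-4SA it ranged from 2218 CPM in tumour 5 over a median of 2944 to 3186 CPM in tumour 2. Every TAZ-4SA tumour therefore held more than 4 times the highest EV level. Group means were 2826 ± 380 CPM (SD, n = 6) and 464 ± 73.5 CPM (SD, n = 3), a ratio of 6.09. The log2 difference was 2.61 ± 0.20 (SE, limma adjusted p = 5.068e-06), and it lay between 2.52 and 2.73 with any single tumour left out. After a linear trend on transcript length was removed in each tumour, it was 2.92.

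ANXA2 was also the steadiest annexin among the TAZ-4SA tumours. Its SD of log2 CPM was 0.204 in TAZ-4SA and 0.222 in EV. The median SD of the 56 genes within 2-fold of its mean level was 0.563 in TAZ-4SA, and 3.57% of those genes had a lower SD than ANXA2.

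Reads of ANXA2 cannot be fully separated from those of its processed pseudogenes. Of the 50-base words in the GENCODE transcript of ANXA2P2, 59.2% occur exactly in ANXA2 transcripts, and 8.10% of those of ANXA2P1 and 0.730% of those of ANXA2P3 do. ANXA2P2 was at 30.4, 32.4 and 35.3 CPM in EV and between 46.9 and 128 CPM, with a median of 76.1, in TAZ-4SA. It was called higher (log2 difference 1.21, limma adjusted p = 0.03265), with no overlap between groups. That call was lost without TAZ-4SA tumour 1 or any single EV tumour (limma adjusted p from 0.05755 to 0.1369). Adding the 3 pseudogenes to ANXA2 gave means of 2913 ± 362 CPM with TAZ-4SA against 498 ± 76.8 CPM with EV, a ratio of 5.85 beside 6.09 for ANXA2 alone.

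ANXA8 encodes annexin A8, a family member found at late endosomes and in squamous epithelium. GENCODE places the gene (Entrez 653145) on chromosome 10 from 47460162 to 47484158 on the minus strand (GRCh38). Its EV levels were 0.0468, 0.116 and 0.193 CPM, from 6 reads in all. In TAZ-4SA tumours it ranged from 4.44 CPM in tumour 2 over a median of 25.4 to 61.3 CPM in tumour 1, from 2446 reads in all. The gene was thus close to silent in EV and measurable in each TAZ-4SA tumour, and no TAZ-4SA tumour came near the EV levels.

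The log2 difference of ANXA8 was 6.48 ± 1.16 (SE, limma adjusted p = 0.002256) on the deposited scale, whose small prior sets the value of 0 reads to -2.786. Mean levels were 28.9 ± 18.6 CPM (SD, n = 6) and 0.119 ± 0.0733 CPM (SD, n = 3). The depth-adjusted ratio of summed reads was 277, with a 95% interval of 127 to 755 that covers counting error only. With a pseudocount of 2 CPM the log2 difference was 3.59, since that pseudocount lies far above the EV levels. Of the 8 annexins, ANXA8 varied most among TAZ-4SA tumours, with an SD of log2 CPM of 1.25 and a highest level 13.8 times the lowest. That spread was not large for its level. The median SD of the 4799 genes within 2-fold of the ANXA8 mean over all tumours was 1.98 in TAZ-4SA, and 38.6% of them had a lower SD.

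ANXA8L1, a copy on chromosome 10 (46375776 to 46391778 in RefSeq), shares most of its sequence with ANXA8. Of the 50-base words in its GENCODE transcripts, 81.2% occur in ANXA8 transcripts, so the division of reads between them is uncertain. ANXA8L1 had 0 reads in all 3 EV tumours and 0 to 13.5 CPM in TAZ-4SA, with a median of 2.44 CPM, and was not called (limma adjusted p = 0.1253), though limma-voom on the recovered reads called it higher (adjusted p = 0.02985). The sum of both genes was 0.0468 to 0.193 CPM in EV and 4.44 to 65.3 CPM in TAZ-4SA, so the groups stayed apart for the pair.

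Markers of other cell types were examined beside ANXA8, because the gene is known from epithelia. Of 6 epithelial markers, 5 were in the table and 4 were tested. KRT18 was called higher, against 9.02% of all genes, and the others tested were not called. The KRT18 groups overlapped, with 5 TAZ-4SA tumours above all EV tumours. Its call was lost in at least 1 fit with a single tumour left out. KRT14 had 0 reads in every TAZ-4SA tumour. The summed epithelial markers ran from 204.7 to 566 CPM with TAZ-4SA and from 116 to 205.9 CPM with EV, mostly from KRT8 and KRT18. The defining junction gene CDH1 had 5.81 ± 12.4 CPM with TAZ-4SA, from reads in 2 tumours, against 0.573 ± 0.291 CPM with EV. The part of these markers in the ANXA8 result was not tested.

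By a fixed rule, the genes most like ANXA8 over the 9 tumours were found among 11857 genes, each centred on its own mean log2 CPM. S1PR1, a receptor gene for sphingosine-1-phosphate, was closest, with a root mean square difference of 0.512 on the log2 scale. TSPAN2, a tetraspanin gene, followed at 0.640 and CREB3L1, a membrane-bound transcription factor gene, at 0.683. Centring spanned both groups, so a like group difference weighs heavily in this measure. The log2 differences of the 3 genes were 6.75, 6.12 and 5.90, beside 6.48 for ANXA8. S1PR1 was at 0.141 to 0.516 CPM in EV and 12.9 to 111 CPM in TAZ-4SA, and like ANXA8 it was lowest in TAZ-4SA tumour 2. For ANXA2 the closest genes, looked up after the data had been seen, were SCYL2, BBX and PPP1CB at 0.161 to 0.165.

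**Figure D2:**
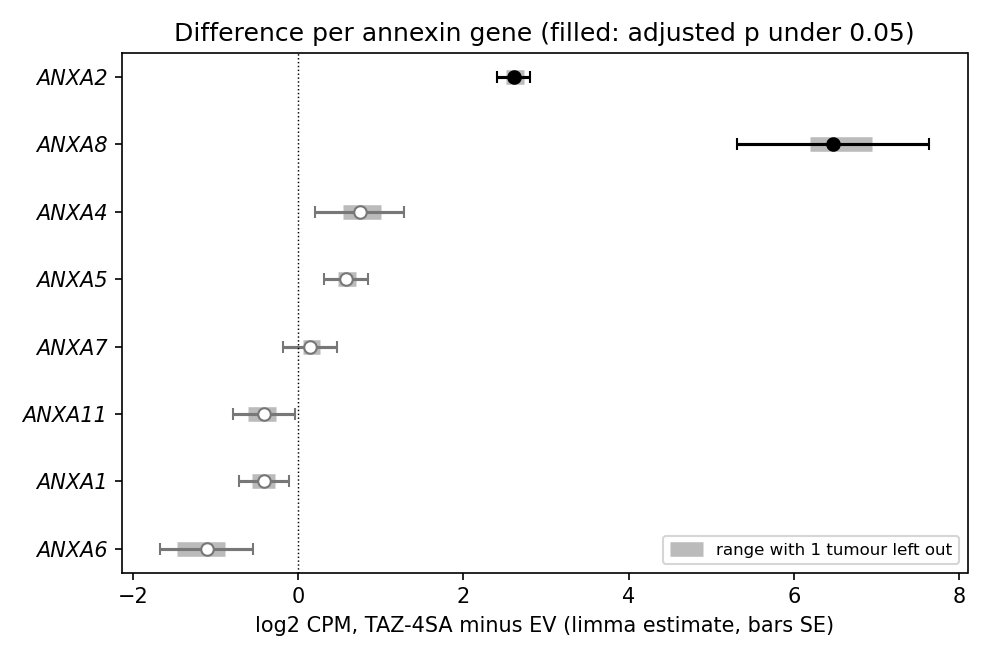
Difference in log2 CPM, TAZ-4SA minus EV, for each annexin gene, with SE bars, and in grey the range when 1 tumour is left out. Filled points are ANXA2 at 2.61 and ANXA8 at 6.48, and the 6 open points lie between -1.11 and 0.75.

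ANXA5 encodes annexin A5, which coats exposed phosphatidylserine and forms lattices at membrane wounds. It was at 317, 283 and 292 CPM in EV. In TAZ-4SA it ranged from 292 CPM in tumour 5 over a median of 476 to 637 CPM in tumour 1. Tumour 5 fell inside the EV range and the other 5 tumours lay above it. The log2 difference was 0.58 ± 0.27 (SE, limma adjusted p = 0.1351). Without TAZ-4SA tumour 5 it was 0.70 (limma adjusted p = 0.03148), and with the length trend removed it was 0.92 (limma adjusted p = 0.02262). ANXA5 was also called with array weights, with group-weighted limma-voom and without tumours 5 and 6, so it stands at the border of the threshold.

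ANXA4 encodes annexin A4, which takes part in membrane aggregation and wound closure. Its EV levels were 25.4, 20.2 and 14.9 CPM, and its TAZ-4SA levels ran from 13.7 CPM in tumour 3 over a median of 36.5 to 67.6 CPM in tumour 4. In TAZ-4SA, 4 tumours lay above and 1 below all EV tumours. The log2 difference was 0.75 ± 0.54 (SE, limma adjusted p = 0.3344).

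ANXA7 encodes annexin A7, or synexin, first known for fusing secretory granules. Levels were 53.7, 49.1 and 55.6 CPM in EV and 38.8 to 78.8 CPM in TAZ-4SA, with a median of 61.3. The log2 difference of 0.14 ± 0.32 (SE, limma adjusted p = 0.7672) was the smallest in size of the 8. Its spread in TAZ-4SA was low for its level: 4.53% of the 5082 genes within 2-fold of its mean had a lower SD of log2 CPM.

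ANXA11 encodes annexin A11, which tethers RNA granules to lysosomes and acts in cytokinesis. It was at 109, 114 and 129.9 CPM in EV and at 54.2 to 172 CPM in TAZ-4SA, with a median of 80.0. In TAZ-4SA, 4 tumours lay below and tumour 3 above all EV tumours, and the log2 difference was -0.41 ± 0.38 (SE, limma adjusted p = 0.447).

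ANXA1 encodes annexin A1, a glucocorticoid-regulated protein that signals through formyl peptide receptors. Its EV levels were 227, 223 and 292 CPM. Its TAZ-4SA levels ran from 116 CPM in tumour 3 over a median of 179 to 299 CPM in tumour 2. There, 5 tumours lay below all EV tumours and tumour 2 above them. The log2 difference was -0.41 ± 0.31 (SE, limma adjusted p = 0.3414), and no alternative gave a call.

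ANXA6 encodes annexin A6, which has a longer repeat core than its relatives and acts in cholesterol transport and membrane repair. It was at 99.5, 105 and 87.3 CPM in EV. In TAZ-4SA it ran from 21.1 CPM in tumour 2 over a median of 39.7 to 157 CPM in tumour 3. Tumour 3 was above all EV tumours and the other 5 were below them. The log2 difference was -1.11 ± 0.56 (SE, limma adjusted p = 0.1722). Without TAZ-4SA tumour 3 it was -1.47 (limma adjusted p = 0.02695), and with array weights on all 9 tumours it was -1.27 (limma adjusted p = 0.00379). The call thus turned on that library and on the weighting.

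Among the TAZ-4SA tumours, ANXA1, ANXA2, ANXA4 and ANXA5 all lay above their TAZ-4SA means in tumours 1, 2 and 4 and all below them in tumours 3 and 5. ANXA6 and ANXA11 both lay below theirs in tumours 2 and 4 and above them in tumours 3 and 5. These are descriptions of 6 tumours, and no test of shared variation was run. ANXA6 and ANXA11 were both highest in tumour 3 (1.80 and 0.96 above their TAZ-4SA means on the log2 scale) and lowest in tumour 2 (-1.09 and -0.70). ANXA1 had the opposite extremes, at -0.67 in tumour 3 and 0.70 in tumour 2. ANXA4 was also lowest in tumour 3, at -1.26, and ANXA8 lowest in tumour 2, at -2.32. Tumours 2 and 3 were the libraries with the most genes at 0 reads (7365 and 6790), and the part of library quality in these differences was not tested.

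**Figure D3:**
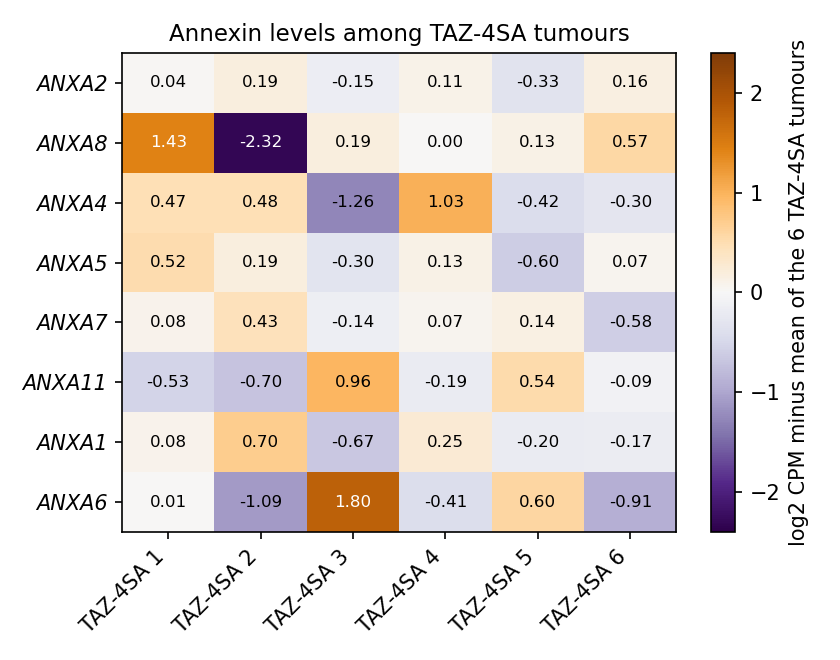
Log2 CPM of each annexin in each TAZ-4SA tumour minus that gene's mean over the 6 tumours. ANXA2 stays between -0.33 and 0.19, while ANXA6 runs from -1.09 in tumour 2 to 1.80 in tumour 3 and ANXA8 from -2.32 in tumour 2 to 1.43 in tumour 1.

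Levels of different annexins were compared per kilobase, with the median length of GENCODE's basic protein-coding transcripts. In EV the order by level was ANXA2 (321 ± 50.9 CPM per kb), ANXA5 (218 ± 12.6), ANXA1 (133 ± 20.7), ANXA6 (45.9 ± 4.35), ANXA11 (25.4 ± 2.34), ANXA7 (21.5 ± 1.38), ANXA4 (9.57 ± 2.49) and ANXA8 (0.0606 ± 0.0374; all SD, n = 3). Ranges of neighbours in that order did not overlap in EV, although ANXA7 and ANXA11 changed places when the longest transcript was used. In TAZ-4SA the first 3 places were the same, with ANXA2 at 1957 ± 263, ANXA5 at 336 ± 88.1 and ANXA1 at 103 ± 33.9 CPM per kb (SD, n = 6). From ANXA1 down the ranges of all neighbours overlapped, and ANXA1 was above ANXA6 in 5 of 6 tumours. Means ran from ANXA6 at 27.5 ± 24.2 to ANXA8 at 14.7 ± 9.51 CPM per kb, and no order among those 5 genes can be given.

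The annexin transcripts as a whole shifted towards ANXA2. Of the summed annexin CPM per kb, ANXA2 made up 38.1% to 44.6% in EV and 74.4% to 81.2% in TAZ-4SA. The share of ANXA5 was 28.3% ± 3.05 (SD, n = 3) in EV and 13.3% ± 2.23 (SD, n = 6) in TAZ-4SA, and that of ANXA1 was 17.1% ± 1.196 and 4.10% ± 1.02. The shares are not independent of the ANXA2 level. The 8 genes summed to 1231 to 1419 CPM in EV and 2981 to 4195 CPM in TAZ-4SA.

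**Figure D4:**
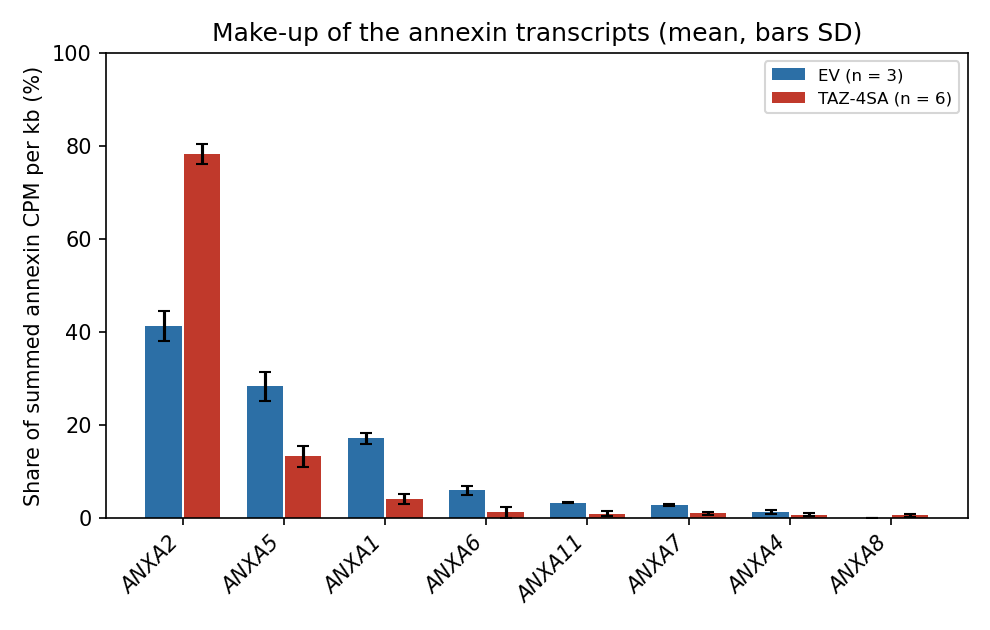
Share of each gene in the summed CPM per kb of the 8 annexins, as group means with SD bars. ANXA2 accounts for 41.3% in EV and 78.3% in TAZ-4SA, and the shares of ANXA5, ANXA1, ANXA6, ANXA11, ANXA7 and ANXA4 are smaller in TAZ-4SA than in EV.

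S100 proteins bind annexin tails. Of 5 S100 partner genes, 2 were called higher, against 9.02% of all genes, and 1 lower, against 13.3%. S100A10, the partner of annexin A2, was at 38.7, 61.6 and 65.6 CPM in EV and ranged from 269.5 CPM in TAZ-4SA tumour 5 over a median of 696 to 1352 CPM in tumour 2. It rose with a log2 difference of 3.54 ± 0.46 (SE, limma adjusted p = 0.0002915), and tumours 2 and 5 held its extremes as they held those of ANXA2. S100A11, a partner of annexin A1, rose from 33.3 to 59.2 CPM in EV to between 155 and 329.9 CPM in TAZ-4SA (log2 difference 2.52 ± 0.33, limma adjusted p = 0.0002845), whereas ANXA1 was not called. S100B, a glial calcium sensor, fell from 208 ± 43.4 CPM to 2.95 ± 4.43 CPM (limma adjusted p = 0.004506), having no read in 3 TAZ-4SA tumours. The log2 difference of -8.06 became -8.81 without TAZ-4SA tumour 1 and -8.68 without tumour 6. S100A6 (781 ± 438 CPM with TAZ-4SA, 469.9 ± 92.1 with EV) and S100A4 (12.8 ± 12.4 and 35.2 ± 11.1 CPM) were not called.

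Annexin A2 and S100A10 together bring plasminogen to tissue plasminogen activator. PLAT, the gene of that activator, fell from 312, 263 and 245 CPM in EV to between 32.8 and 59.3 CPM in TAZ-4SA (log2 difference -2.64 ± 0.30, limma adjusted p = 0.0001138). PLAUR, the urokinase receptor gene, rose from 8.36 ± 1.03 to 145 ± 82.7 CPM (limma adjusted p = 0.001059), a call that limma-voom on the recovered reads did not make (adjusted p = 0.07019). PLAU, the urokinase gene, was in the table with 46 EV reads and 0 TAZ-4SA reads and was too low to be tested.

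**Figure D5:**
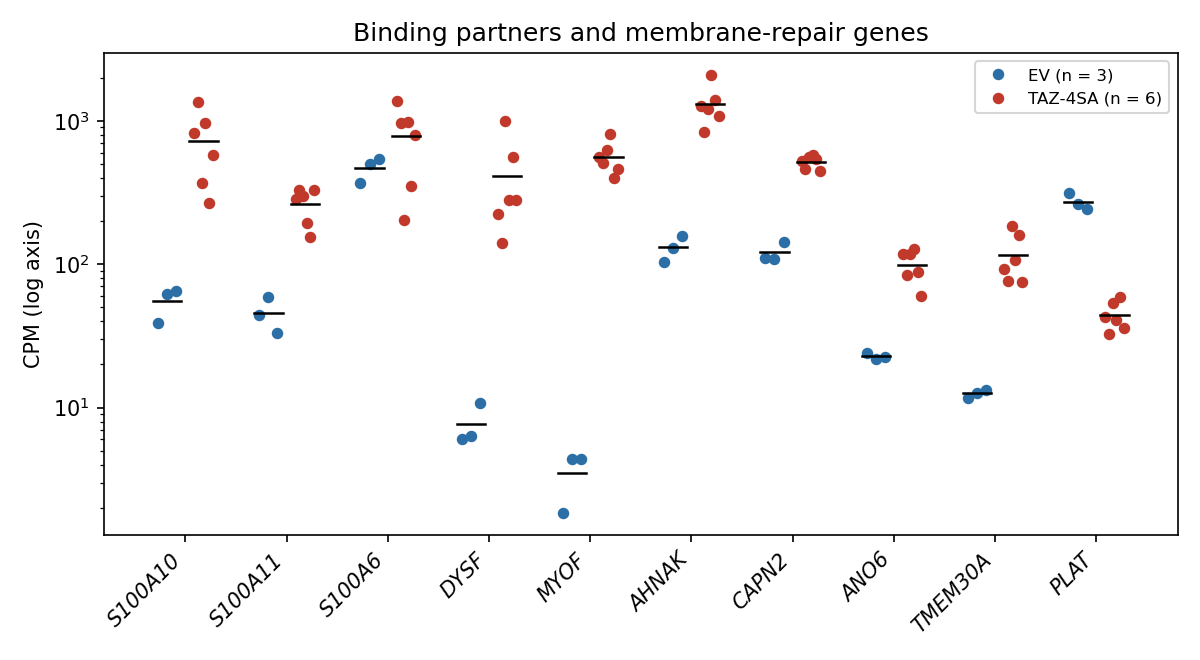
Level in CPM on a log axis of S100 partner, membrane-repair, scramblase-related and plasminogen-activation genes, with 1 point per tumour and a line at the group mean. PLAT is lower in TAZ-4SA, S100A6 overlaps between groups, and the other 8 genes lie higher in every TAZ-4SA tumour than in every EV tumour. Of all genes tested, 10.8% lie higher in that way. The repair and scramblase-related genes drawn were picked from those called higher, so their shared direction follows from that choice. VPS4A and ATP11A of the same lists, not drawn, lie lower in every TAZ-4SA tumour.

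Plasma membrane repair, in which annexins A1, A2, A4, A5 and A6 take part, includes ferlins, calpains and the ESCRT machinery. Of 17 repair genes tested, 8 were called higher, against 9.02% of all genes, and 0 lower, against 13.3%. At an unadjusted p under 0.05 the limma counts were 8 and 3, and all genes were not counted at that threshold. Limma-voom on the recovered reads called 8 higher and 2 lower, against 1359 and 3573 of all 15578 genes. With the length trend removed 7 were higher and 1 lower, against 1173 and 1728 of 13953 genes. Without TAZ-4SA tumours 5 and 6 the counts were 6 and 2, against 1450 and 2758 of all genes. Array weights gave 9 and 4, against 2531 and 5630, and quantile normalization 8 and 0, against 1920 and 1624. The median log2 difference of the list was 0.68, beside -0.85 over all genes. DYSF, the dysferlin gene, rose from 6.00, 6.34 and 10.8 CPM to between 141 and 998 CPM (log2 difference 5.46 ± 0.53, limma adjusted p = 3.179e-05). AHNAK, a giant scaffold that binds the annexin A2 and S100A10 complex, rose from 131 ± 27.0 to 1313 ± 427 CPM. CAPN2, a calpain that cleaves cytoskeletal links at wounds, rose from 121 ± 19.8 to 519 ± 55.5 CPM. EHD2, CAVIN1, PDCD6IP, VPS4B and the ferlin gene MYOF were the other called genes. Leaving out EV tumour 1 reduced the count to 5, without CAVIN1, EHD2 and PDCD6IP.

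Annexin A5 binds phosphatidylserine, which scramblases expose and flippases return. Of 8 such genes tested, 2 were called higher and 1 lower, against 22.4% of all genes either way, and the list's median of -0.95 lay close to the -0.85 of all genes. ANO6, a calcium-activated scramblase gene, rose from 22.8 ± 1.27 to 99.2 ± 26.1 CPM and TMEM30A, the flippase chaperone gene, from 12.6 ± 0.767 to 116 ± 46.1 CPM. ATP11A, a flippase gene, fell from 8.81, 15.6 and 15.2 CPM in EV to no read in 5 TAZ-4SA tumours and 2.80 CPM in tumour 5. The log2 difference of -5.75 became -6.48 without that tumour.

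SRI, PDCD6 and GCA encode partners of annexins A7 and A11. Of these 3 genes, limma called 0 in either direction, against 22.4% of all genes. At an unadjusted limma p under 0.05, where all genes were not counted, 1 was lower. Limma-voom called PDCD6 lower (adjusted p = 0.03578), as it did 3573 of all 15578 genes. PDCD6, the calcium sensor that binds annexin A11, was at 94.3, 98.6 and 73.6 CPM in EV and at 49.8 ± 16.8 CPM in TAZ-4SA (log2 difference -0.88 ± 0.35, limma adjusted p = 0.0874). SRI, the sorcin gene, was at 60.5 ± 4.78 CPM in EV and 58.3 ± 39.3 CPM in TAZ-4SA. Of the copines, another family of calcium-dependent phospholipid-binding proteins, limma called 0 of 8 tested in either direction, against 22.4% of all genes. At an unadjusted limma p under 0.05, where all genes were not counted, 1 was higher and 1 lower. Limma-voom called 0 copines, against 1359 higher and 3573 lower of all 15578 genes.

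For annexin A1, the receptor genes FPR1, FPR2 and FPR3 were not analysed here. PLA2G4A, the gene of the cytosolic phospholipase A2 that annexin A1 is known to restrain, fell from 17.0, 14.7 and 5.55 CPM in EV to 0 reads in 5 TAZ-4SA tumours and 3.97 CPM in tumour 6. Its log2 difference of -5.48 (limma adjusted p = 0.01062) became -6.29 without TAZ-4SA tumour 6, and it was not called without EV tumour 1 or 2 (limma adjusted p = 0.06072 and 0.05803). Each TAZ-4SA library left 2990 or more genes without a read, and the part of that in these 0 reads was not tested.

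ANXA9, an annexin with altered calcium-binding sites that was not among the 10 symbols, fell from 15.3, 18.2 and 13.4 CPM in EV to between 0 and 5.13 CPM in TAZ-4SA, with 0 reads in 3 tumours. Its log2 difference was -4.73 (limma adjusted p = 0.03957). The call held without TAZ-4SA tumour 1 (log2 difference -5.36) or 4 and was lost without any 1 of the other 7 tumours (limma adjusted p from 0.05163 to 0.1458). ANXA2R, ANXA2P1 and ANXA2P3 were not called (limma adjusted p = 0.1609, 0.5456 and 0.09256).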

How the data were processed

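The deposited table gives, for each of 18364 genes with Entrez number and symbol, log2 CPM in 9 tumours. Nothing names the unit. It was inferred from the numbers, which share the minimum -2.786, the log2 of a small prior. Tumours were lysed in TRIzol and libraries made by SMART-Seq and Nextera XT, per the labels' protocols. This chemistry keeps no strand. HISAT2, edgeR and GRCh38 are named without roles, per the submitters' processing notes. No source used here states how reads were counted, with which annotation, or how mouse reads were separated.

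With the prior removed, 100% of values under 5000 reads were whole within 0.1 read, and the totals of recovered reads are the depths given. The labels do not tie tumours to animals, so the p-values reflect only sample-to-sample spread, possibly technical. Limma 3.58.1 (R 4.3.3) with trend and robust empirical Bayes was fitted to the deposited log2 values of the 15578 genes averaging 1 CPM or more, prior included, with Benjamini-Hochberg adjustment at 0.05 over all of them. Differences are TAZ-4SA minus EV and understate changes of low genes. CPM are given with the prior removed. The fit was tested on simulated data.

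Annexins and lists were chosen with earlier results of these data known. All annexins, WWTR1, S100, annexin A7 and A11 partners, other annexin genes and up to 4 called genes per further list were named. EHD2, CAVIN1, PDCD6IP, VPS4B, KRT18, KRT8, KRT14, CDH1, PLAU, SCYL2, BBX and PPP1CB were added after their values were seen. A result of 1 gene is not reported here. Coordinates and promoters are from RefSeq, lengths and shared 50-base words from GENCODE. Marker lists for other cell types are summarised in the closing section. Alternatives were pseudocounts, scaling, filters, weights, limma-voom, the replicate block and each tumour left out. Others, added after seeing the data, left out several TAZ-4SA tumours or removed a transcript length trend.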

Additional observations from a re-analysis of the deposited data

Results flagged for a closer look

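A sample stood apart from the other 5 TAZ-4SA tumours in 3 of the 37 named genes, by the gap to the nearest tumour over the whole range of log2 CPM against Dixon's 95% critical value. Chance passes that value in about 1 of 20 groups. ANXA2P1, with 0 reads in 2 TAZ-4SA tumours, was highest in TAZ-4SA tumour 1, at 4.43 CPM (gap share 0.634). Among TAZ-4SA tumours PLA2G4A had reads only in tumour 6, at 3.97 CPM, and ATP11A only in tumour 5, at 2.80 CPM. The gap share was therefore fixed at 1 for both by the zeros. None of the 8 annexins passed the value.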

How the results depend on the processing

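ANXA2 and ANXA8 were called higher in all 25 fits, with log2 differences from 2.52 to 2.92 and from 3.59 to 7.65. Among the annexins 185 of 192 comparisons with an alternative kept direction and side of the threshold, 7 moved into a call and 0 reversed. The count called lower was 0, and it was 1 (ANXA6) with array weights and 0 to 1 with single tumours left out. The array weights did not fully converge. Same-numbered tumours did not deviate together (correlations -0.0471 to 0.0313). The labels do not say whether the numbers pair tumours, and so few correlations cannot settle it. With the replicate block on tumours 1 to 3 of each group, ANXA2 had 2.63 and ANXA8 6.24 (limma adjusted p = 0.01382 and 0.04723), and over all genes 562 were higher and 2159 lower, against 1244 and 2798 in the same tumours unblocked and 1405 and 2079 in all 9. The WWTR1 difference was 1.34 to 1.55 with single tumours left out. Without an EV tumour its exact permutation p was 0.07143, the smallest that 6 against 2 tumours allow. Among other named genes 632 of 685 comparisons kept their call. GCA changed sign with a pseudocount of 2 CPM (0.079), quantile normalization (1.18) and without TAZ-4SA tumours 2, 3 and 4 (0.62), and ANXA2P1 with quantile normalization (1.59). The cause was not tested. Over all genes the calls were 2531 higher and 5630 lower with array weights, 1359 and 3573 with limma-voom, 2261 and 4542 with group-weighted limma-voom, 1507 and 3384 without a filter, 1392 and 967 at a mean of at least 10 CPM, 827 and 872 without EV tumour 1, 799 and 852 without EV tumour 2 and 1029 and 990 without EV tumour 3. Depth limits ANXA8 in EV, which rests on 6 reads. The falls of S100B, PLA2G4A, ATP11A, ANXA9 and PLAU rest partly or wholly on 0 reads in TAZ-4SA libraries, which left many genes without a read. The part of library quality in them was not tested.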

Other observations

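Marker genes of host or other cell types were sparse and uneven. The summed endothelial markers were 10.99 to 16.0 CPM in EV and 0.101 to 149 CPM in TAZ-4SA, where TIE1 carried most of the sum (48.6 ± 57.9 CPM). The microglia and macrophage markers summed to 15.9 to 25.6 CPM in EV and 54.7 to 142 CPM in TAZ-4SA, mostly from the lysosomal gene CD68, while PTPRC, which marks white blood cells, had 2 reads in EV and 123 in TAZ-4SA, all in 1 tumour. Neuron markers summed to 44.95 to 156 CPM in EV and 84.5 to 1297 CPM in TAZ-4SA, and oligodendrocyte markers to 192 to 275 CPM and 8.52 to 319.9 CPM, with MOG and MOBP at 0 reads in every TAZ-4SA tumour. The part of these markers in the annexin differences was not tested.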
